A study of Aspergillus nidulans with 12 samples.

Results

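The genes described here are those of *Aspergillus nidulans* whose transcripts fell to 10% or less of the reference level once *atfA* was deleted, with and without cadmium. A gene was a member when its mean RPKM was at least 5 in both groups of the THS30 reference strain, when its TNJ92 *ΔatfA* mean was at most 10% of the THS30 mean in untreated and in CdCl2-treated cultures alike, and when its THS30 response log2((treated + 1)/(untreated + 1)) was under 0.8 in absolute value. RPKM is the number of reads per kilobase of transcript, scaled to the total count of the library. The rule found 65 of the 10988 genes in the deposited table, 0.95% of the 6841 genes that reached the level asked for in THS30.

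The study compared the transcriptomes of 2 strains to ask how AtfA shapes the response to cadmium. THS30 has the genotype *pyrG89; AfupyrG+; pyroA4; pyroA+*, and TNJ92 carries *pyrG89; AfupyrG+; pyroA4; ΔatfA::pyroA*. The strains thus share the *pyrG89* allele with its *AfupyrG+* marker and the *pyroA4* allele, and they differ in *atfA* and in the place of the *pyroA* marker. Each strain was grown as submerged mycelium in Barratt's minimal broth with yeast extract. CdCl2 was given to some cultures at 16 h to a final 0.2 mM, and mycelia were taken 0.5 h later from these and from untreated cultures, with 3 biological replicates for each of the 4 groups. The mutant was a single deletion strain, and no strain with *atfA* put back was among the libraries.

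AtfA is a bZIP transcription factor, a protein that binds DNA through a basic region and pairs through a leucine zipper. In filamentous fungi, AtfA and its orthologs act at the end of a stress-activated MAP kinase cascade. Sensor kinases feed a phosphorelay, which acts on the kinases above SakA in that cascade. AtfA and its orthologs are known for roles in stress tolerance, in the formation and survival of spores and in secondary metabolism. In fission yeast, the related factor Atf1 binds the MAP kinase Sty1.

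Library totals ranged from 8721119 to 13641031 counts, and the common biological coefficient of variation was 0.109. The hyphal markers *actA* (actin), *benA* (tubulin), *chsB* (chitin synthase) and *fksA* (glucan synthase) summed to 2061 to 2156 RPKM in untreated and 1975 to 2129 RPKM in treated THS30, and to 2310 to 2375 RPKM in untreated and 2015 to 2192 RPKM in treated TNJ92. In untreated TNJ92, *fksA* was lower, with a log2 fold change of -1.18 (edgeR, adjusted p = 3.95e-08), and *benA* was higher, with 0.65 (edgeR, adjusted p = 1.42e-05). The 8 spore markers, all detected, summed to 30.3 to 46.6 RPKM in untreated and 40.3 to 44.6 RPKM in treated THS30, and to 23.2 to 93.2 RPKM in untreated and 29.9 to 44.7 RPKM in treated TNJ92. Of the 7 tested, 3 were lower in TNJ92 in each condition and none was higher. Of all genes tested, 29.6% were lower and 32% higher in untreated cultures, and 27.8% each way with CdCl2. With so few markers nothing is read from that count, and the part of the spore markers in the results below was not tested. The highest sum came from the third untreated TNJ92 library, where *rodA*, the hydrophobin of the spore coat, stood at 71.4 RPKM against 2.15 and 23.7 RPKM in the other untreated TNJ92 libraries. Without *rodA* the spore markers summed to 26.8 to 28.2 RPKM in untreated and 28.9 to 30.1 RPKM in treated THS30. In TNJ92 they then summed to 18.6 to 21.8 RPKM in untreated and 21.9 to 27 RPKM in treated cultures. The strains did not overlap in this sum, but with all 8 markers they did in both conditions. Of the markers, *rodA* stood highest relative to THS30 in untreated TNJ92, at 348%. Leaving it out lowers the TNJ92 sum most there, so nothing is read from the separation.

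The deleted gene is itself a member. *atfA* (AN2911) stood at 197, 178 and 160 RPKM in untreated THS30 and at 146, 138 and 138 RPKM with CdCl2. In TNJ92 it stood at 14.6, 14.7 and 14.5 RPKM without and at 10.8, 11.4 and 15 RPKM with CdCl2. The libraries labelled TNJ92 thus all lay far below those labelled THS30, but reads were still counted for *atfA*, at 8.19% and 8.84% of the THS30 mean. Which part of the gene these reads came from cannot be read from a table of gene counts.

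The members were chosen by their RPKM in all 4 groups, that is, on the strain differences and on the THS30 response, so the levels that follow are a description. In the 6 THS30 libraries the members had a median mean level of 47.3 RPKM, with 24 genes at 100 RPKM or more, 35 from 10 to 100 RPKM and 6 under 10 RPKM. The median of all genes above the level asked for was 28.5 RPKM. In such bulk samples, fewer cells of a type and less RNA per cell cannot be told apart. Together the members took 0.99 to 1.11% of the counts of a THS30 library, 0.0161 to 0.0186% of an untreated TNJ92 library and 0.0277 to 0.0288% of a CdCl2-treated one. For every one of the 65 members, all TNJ92 libraries lay below all THS30 libraries. Fitted with edgeR, all 65 were called lower in TNJ92 in both conditions, beside 29.6% of the 9070 genes tested in untreated and 27.8% in CdCl2-treated cultures, and nothing is read from that count because the rule fixed it.

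**Figure D1:**
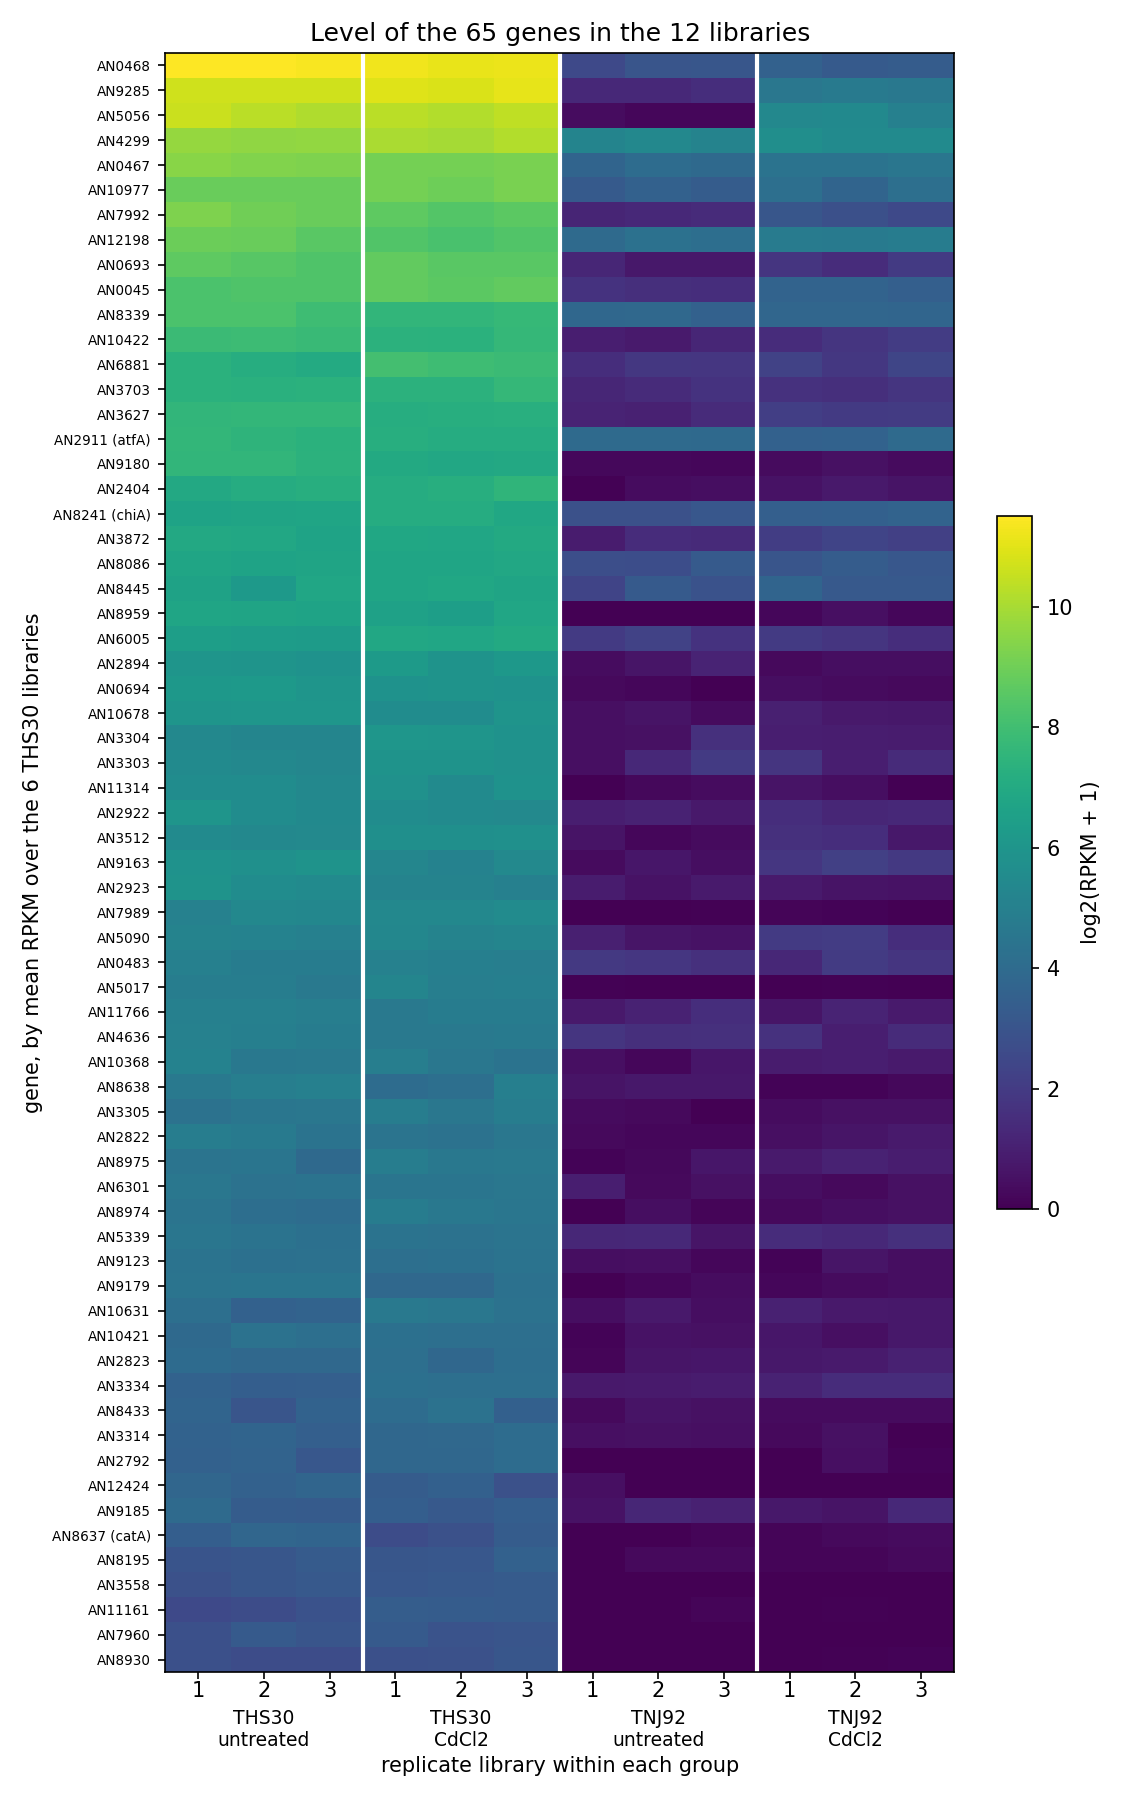
Level of each of the 65 members (rows, ordered by mean RPKM over the THS30 libraries) in each of the 12 libraries (columns, 3 replicates per group), coloured by log2(RPKM + 1). The THS30 columns are bright down to the lower rows, the TNJ92 columns are dark, and AN4299, AN12198 and AN5056 have the highest means over the TNJ92 libraries, at 41.8, 21.5 and 19.3 RPKM, that of AN5056 almost wholly from the treated ones.

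AN0468 was the most abundant member. It stood at 2917, 2918 and 2718 RPKM in untreated THS30 and at 2494, 2259 and 2320 RPKM with CdCl2, which placed it at rank 26 of all genes and gave it 18.2 to 22.8% of all counts of the members in a THS30 library. In TNJ92 the same gene stood at 4.76, 7.3 and 7.37 RPKM without and at 10.8, 8.53 and 9.15 RPKM with CdCl2, rank 6283. The transcript went from among the most abundant of the mycelium to 0.227% and 0.402% of the reference level. The sources used here do not annotate AN0468, nor AN9285, AN5056, AN4299, AN0467, AN10977, AN7992, AN12198, AN0693 and AN0045, which follow it in abundance.

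AN9285 was at rank 43 in THS30, with 1639, 1621 and 1620 RPKM in untreated and 1984, 1846 and 2202 RPKM in treated cultures. AN5056 was at rank 73, with 1522, 1290 and 1128 RPKM in untreated and 1266, 1176 and 1350 RPKM in treated cultures. In untreated TNJ92 these genes had 9, 8 and 11 counts and 2, 1 and 1 counts. The 10 most abundant members thus ranged in untreated cultures from 0.0155% of the reference level for AN5056 to 4.58% for AN4299.

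How silent the members were in the mutant differed widely. The median residual level was 1.4% of THS30 in untreated and 1.81% in treated cultures. It was under 1% for 28 members without and for 16 members with CdCl2, from 1 to 5% for 28 and 35 members, and 5% or more for 9 and 14 members. With CdCl2 the percentage was higher than without for 46 members and lower for 17. Many of these percentages rest on few TNJ92 counts, and each also moves with the THS30 response. The split was not set beside that of all genes, so nothing is read from it.

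At one end, AN3558 and AN7960 had no count in any of the 6 TNJ92 libraries, against 25 to 46 counts for AN3558 and 18 to 37 counts for AN7960 in a THS30 library. With a floor of 3 counts over the libraries of a group, AN3558 was at least 43-fold lower in untreated and at least 47.2-fold lower in treated cultures, and AN7960 at least 32.3-fold and 32.4-fold lower. The bounds are modest because both genes were weak in THS30, at 7.83 and 7.37 RPKM. AN8959 allowed a tighter one. It had 561, 769 and 697 counts in untreated THS30 and none in untreated TNJ92, at least 798-fold lower. AN2792 and AN8930 also had no count in untreated TNJ92, and AN12424 had none in treated TNJ92. In all, 15 members, these among them, lacked counts in some but not all TNJ92 libraries, and 48 had counts in every one. These bounds cover counting error only.

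At the other end, AN4299 kept the highest level of all members in TNJ92, at 35.8, 40.6 and 34.7 RPKM without and 50.8, 44 and 45.2 RPKM with CdCl2. This put it at rank 2679 among all genes of the mutant, so a gene within the rule need not be silent. In THS30 it stood at 778 to 838 RPKM in untreated and at 993 to 1153 RPKM in treated cultures. AN12198 stood at 14.7, 18.5 and 16.6 RPKM in untreated and at 26.6, 25.1 and 27.5 RPKM in treated TNJ92. "Nearly silent" holds for the level of most members, but for AN4299 and AN12198 the data show a strong reduction of an abundant transcript. They were not the only exceptions. Mean TNJ92 levels without and with CdCl2 were 14.1 and 20.8 RPKM for AN0467, 14.6 and 12.4 RPKM for *atfA*, and 12.8 and 12.7 RPKM for AN8339. In treated TNJ92, AN5056 and AN9285 reached means of 38.3 and 23.5 RPKM.

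The limits of the rule cut through a continuous range. Just inside the 10% limit lay *atfA* (8.84% in its higher condition), AN5339 (8.85%) and AN9185 (9.59%), and just outside lay AN8972 (10.2%), AN5624 and AN1625 (both 10.3%). A further 21 genes met all limits but the one on the THS30 response. Of these, 10 rose and 11 fell with CdCl2 in THS30, on the rule's log2 scale from -1.75 for AN3520 to 3.25 for AN7116, while the members lay between -0.66 and 0.77.

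The rule bounds how far a member can respond in THS30 and how high it can stand in TNJ92, but it does not fix which way a member moves with CdCl2 in TNJ92. That movement was tested with edgeR's quasi-likelihood test on the counts, with Benjamini-Hochberg adjustment over all 9070 genes. Of the 65 members, 20 rose and 3 fell with CdCl2 in TNJ92. These are 30.8% and 4.62% of the members, beside 28.3% and 28.2% of all genes tested. The median log2 fold change was 0.53 over the members and 0.00 over all genes. In THS30, whose response the rule bounds, 7 members were called higher and 19 lower, beside 22.5% and 21.5% of all genes. Only 32 of the 65 members had enough reads in the TNJ92 libraries to pass the filter there by themselves. Of the calls, 4 of the 20 rises and 2 of the 3 falls came from the other 33. Since so many members had few reads in the mutant, the share of members called is not read as near to or apart from that of all genes.

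AN5056 showed the largest change. Its 2, 1 and 1 counts in untreated TNJ92 became 247, 275 and 202 counts after CdCl2, or 0.304, 0.164 and 0.145 RPKM against 40.1, 43.7 and 31.3 RPKM. The fitted log2 fold change was 7.27 ± 0.30 (SE, n = 3 libraries per group, edgeR, adjusted p = 5.93e-11). From the summed counts, the ratio was 169, with a 95% counting interval (exact Clopper-Pearson) of 65.8 to 623. That interval is wider than the SE implies. The SE was taken from the F statistic and can be too small with so few untreated counts. Even so, the treated mutant stayed at 3.03% of treated THS30.

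AN9285 went from 1.54, 1.48 and 1.8 RPKM to 22.5, 24.7 and 23.4 RPKM in TNJ92. The treated libraries all lay above the untreated ones, with a log2 fold change of 3.70 ± 0.18 (edgeR, adjusted p = 2.36e-10). AN9163 rose from 3, 7 and 4 counts to 28, 39 and 32 counts, a log2 fold change of 2.69 ± 0.31 (edgeR, adjusted p = 1.39e-06), while in THS30 it stood at 54.1 to 58.6 RPKM in untreated and at 33.7 to 41.7 RPKM in treated cultures. Its residual level therefore went from 0.722% to 7.75% of THS30.

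AN0045 rose from 2.23, 1.93 and 1.86 RPKM to 11.6, 11.5 and 10.2 RPKM, a log2 fold change of 2.32 ± 0.12 (edgeR, adjusted p = 5.82e-10). AN7992 rose from 10, 11 and 14 counts to 56, 46 and 38 counts, and AN3627 from 52, 42 and 76 to 137, 118 and 124 counts, with log2 fold changes of 1.89 ± 0.23 and 1.06 ± 0.14. For each of these genes the replicate ranges of the conditions were apart. AN8959 was also called, on 0, 0 and 0 against 1, 3 and 1 counts (edgeR, adjusted p = 0.0211), and the call was lost without replicate 1 or 3 of untreated or replicate 2 of treated TNJ92.

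**Figure D2:**
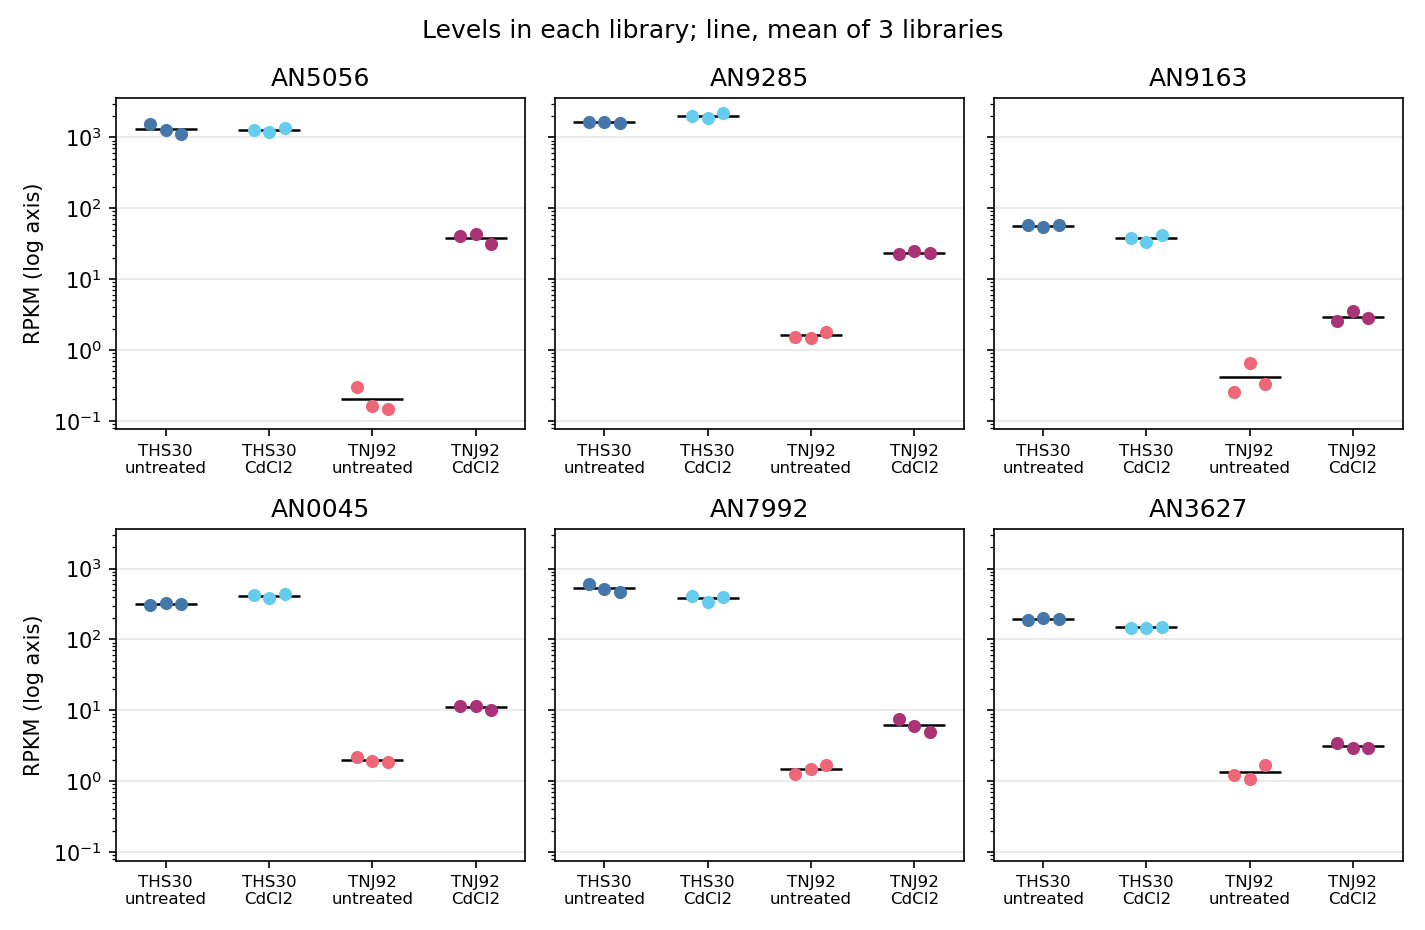
RPKM on a log axis of 6 members in each library, with points for the 3 replicates of each group and a line at their mean. In every panel the treated TNJ92 libraries sit above the untreated ones and both stay below THS30; AN5056 shows the widest step, from 0.145 to 0.304 RPKM up to between 31.3 and 43.7 RPKM.

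The rises were not spread evenly over the members' reads. Without AN5056, AN9285 and AN0045, the other members held 0.0157 to 0.0182% of the counts in untreated and 0.0226 to 0.0242% in treated TNJ92. Scaled by library totals in place of TMM factors, the median of all genes shifted by 0.15 on the log2 scale, and 26 members then rose and 1, AN8638, fell. No share of all genes was set beside these counts, so nothing is read from them.

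The members that fell in TNJ92 had few reads, apart from *atfA*. AN8638 went from 6, 7 and 8 counts to 1, 1 and 2 counts, the only fall in which the replicate ranges were apart (log2 fold change -2.37 ± 0.78, edgeR, adjusted p = 0.0169). The call was lost without the third untreated or the first treated TNJ92 library. With only the TNJ92 libraries fitted, AN8638 did not pass the filter and was not tested. AN2894 had 3, 5 and 12 counts in untreated and 2, 3 and 3 counts in treated TNJ92. Its call was lost without the third untreated library, without any treated TNJ92 library and with library totals. It was likewise not tested with only the TNJ92 libraries fitted. The reads still counted for *atfA* fell by 0.37 ± 0.12 on the log2 scale (edgeR, adjusted p = 0.0126), with overlapping ranges, and this was no longer called without the first or the second treated TNJ92 library or with library totals. Without the third untreated TNJ92 library, the one high in *rodA*, 21 members rose and 1 fell. Without the first treated one, 21 rose and 1, AN4636, fell.

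The difference between the strains' responses to CdCl2 was fitted as an interaction. It is not wholly independent of how the members were chosen, since the rule bounds the THS30 response and both strain differences, though not their order. It was called higher, that is, more positive in TNJ92, for 21 members and lower for 1, beside 13.2% and 13.6% of all genes. The members' share was 32.3% higher and 1.54% lower, and their median was 0.59 against 0.01 over all genes. Of the 21, 13 were called lower in THS30, the response that the rule bounds, and 6 came from the 33 members with few reads in TNJ92, so nothing is read from the share. The single lower call was AN6005, at 19, 23 and 15 counts in untreated and 18, 15 and 12 counts in treated TNJ92. Its interaction of -0.85 ± 0.28 (edgeR, adjusted p = 0.032) was lost when any of 7 libraries was left out.

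Among the members with counts in every TNJ92 library, the largest interactions were those of AN5056 (7.45 ± 0.34) and AN9285 (3.52 ± 0.21), with edgeR adjusted p of 7.38e-10 and 1.3e-08. The SE of AN5056 can again be too small, since its untreated TNJ92 counts were so few. That of AN8959, 3.91 ± 1.27 (edgeR, adjusted p = 0.0342), rests on an untreated group at 0 counts, so its size depends on the prior count of the fit, and the call was lost with DESeq2 and without any of 4 libraries. In THS30 the response of AN5056 was -0.17 and that of AN9285 was 0.18. AN0468 and its neighbour AN0467 fell in THS30, by 0.40 and by 0.36 on the log2 scale, and rose in TNJ92, with changes of 0.40 and 0.41. The rise of AN0468 (edgeR, adjusted p = 0.0376) was lost with no filter on low counts, with only the TNJ92 libraries fitted and without any of 3 libraries, and it was 0.22 without the first untreated TNJ92 library. Their interactions were 0.80 ± 0.19 and 0.77 ± 0.15 (edgeR, adjusted p = 0.00499 and 0.000917). Left out one at a time, no library ended the call of 15 of the 21 members, among them AN5056, AN9285, AN9163, AN0045, AN7992, AN3627, AN0467 and AN0468.

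**Figure D3:**
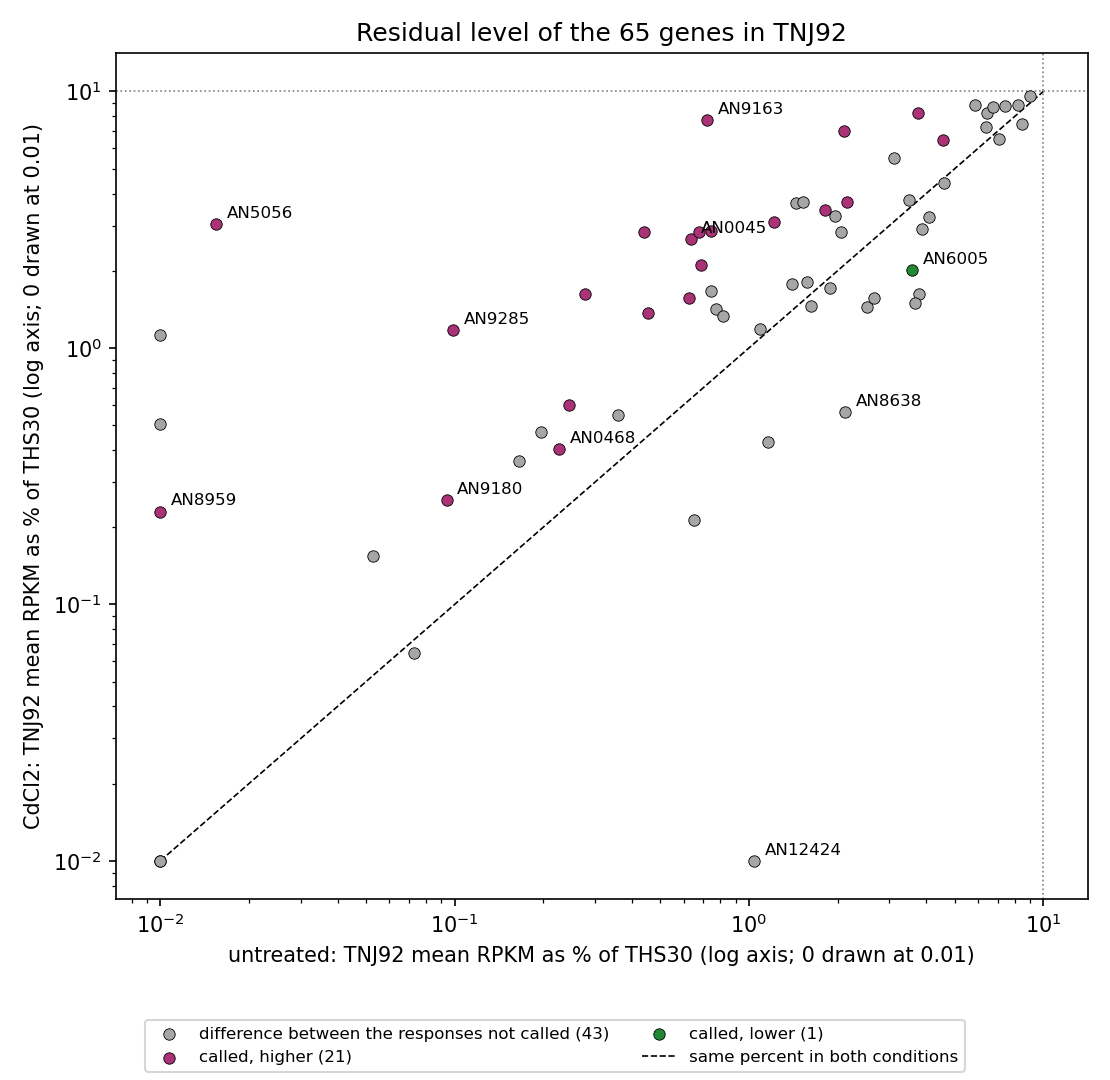
Residual level of the 65 members in TNJ92 as a percentage of the THS30 mean, untreated (x axis) against CdCl2-treated (y axis), both on log axes with 0 drawn at 0.01. Of the members, 46 lie above the dashed line of equal percentages and 17 below it, and all 65 lie within the dotted limits of 10% by the rule. The split about the line is a description, since many percentages rest on few TNJ92 counts.

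Few of the members carry a known function in the sources used here. Catalases break down hydrogen peroxide, and *catA* (AN8637) encodes the one specific to conidia, the asexual spores. It was weak in mycelium, at 9.71, 12.8 and 11.9 RPKM in untreated and 5.44, 6.15 and 9.09 RPKM in treated THS30. In TNJ92 it had 1, 0 and 4 counts without and 3, 7 and 8 counts with CdCl2, and the ranges overlapped. Its change in TNJ92, 1.68 ± 0.83, did not pass (edgeR, adjusted p = 0.0961), but it passed at 1.68 with the replicate block, at 1.75 with DESeq2, at 1.66 without the third treated THS30 library and at 3.14 without the third untreated TNJ92 library. Its interaction of 2.54 ± 0.85 passed with an edgeR adjusted p of 0.037, which was lost without any of 7 libraries. *catA* was the only member among the 12 conidial genes examined, which run from the regulators *brlA*, *abaA* and *wetA* to *wA*, the polyketide synthase of the spore pigment. Of the 11 of them tested, 5, *catA* counted, were lower and 1, *velB*, was higher in untreated TNJ92, beside 29.6% and 32% of all genes. With CdCl2, 4, *catA* counted, were lower and 2 higher, beside 27.8% of all genes in each direction. The rule fixed the lower calls of *catA*, and nothing is read from these counts. *brlA*, at the head of the pathway of spore formation, was at 0.987 RPKM in untreated THS30 and at 0.75 RPKM in untreated TNJ92.

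*chiA* (AN8241), an endochitinase held at the cell surface at sites of germination and hyphal branching, was the member of the cell wall group. It stood at 100, 105 and 109 RPKM in untreated and at 138, 138 and 115 RPKM in treated THS30. In TNJ92 it stood at 6.31, 6.21 and 7.69 RPKM without and at 10.1, 10.5 and 11.5 RPKM with CdCl2. Its rise in TNJ92, 0.52 ± 0.10 (edgeR, adjusted p = 4e-04), was clear of the replicate spread, and its interaction of 0.34 ± 0.14 was not called (edgeR, adjusted p = 0.0855).

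Secondary metabolite clusters are neighbouring genes that together make a compound. They held 6 members of 452 genes, 1.33%, beside 0.592% of all genes. In the group of 4 genes named for AN2924, AN2922 and AN2923 were members. AN2922 stood at 62.8, 47.6 and 43.6 RPKM in untreated THS30 and at 0.964, 1.12 and 0.711 RPKM in untreated TNJ92, and AN2923 at 59.6, 48.2 and 44.5 RPKM against 0.841, 0.488 and 0.806 RPKM. The other genes of that group, AN2921 and AN2924, were weaker in THS30 and missed the level asked for. They also lay outside the limit on the THS30 response, in opposite directions. With CdCl2, AN2921 went from 4.11 to 0.924 RPKM and AN2924 from 4.67 to 15.2 RPKM in THS30. Their strain differences were -5.08 and -4.49 on the log2 scale in untreated cultures, so all 4 genes were low in the mutant.

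A group of 8 genes without a polyketide synthase or peptide synthetase held 3 members. AN9180, a putative transketolase, was the strongest at 188, 190 and 169 RPKM in untreated and 125, 120 and 124 RPKM in treated THS30. It had 5, 5 and 4 counts in untreated and 7, 11 and 7 counts in treated TNJ92, 0.0938% and 0.255% of THS30. Its change in TNJ92 was not called (edgeR, adjusted p = 0.171), while the interaction of 1.41 ± 0.33 was (edgeR, adjusted p = 0.0135), except without the second treated TNJ92 library. AN9179, beside it, went from 20.6, 20.9 and 21.3 RPKM in untreated THS30 to 0, 0.145 and 0.322 RPKM in untreated TNJ92. AN9185, whose transcript is known to be induced by nitrate, was weaker, at 14.8, 9.3 and 8.75 RPKM in untreated THS30 and at 0.484, 1.39 and 1.08 RPKM in untreated TNJ92. AN9181, the gene next to AN9180 on the other side, stood at 1.72 RPKM in untreated THS30 and 1.2 RPKM in untreated TNJ92, a strain difference that was not called there (edgeR, adjusted p = 0.171), but with CdCl2 it was called lower at -0.75 (edgeR, adjusted p = 0.0433). AN9184 stood at 87.7 RPKM in untreated THS30 and 14.3 RPKM in untreated TNJ92, and AN9184 and AN9183 were called lower in both conditions, with strain differences of -2.64 and -3.26 in untreated cultures.

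AN2404, with the domains of a peptide synthetase-like acyl CoA synthetase, was the only member of the 16 genes of the group named for AN10297. It stood at 123, 140 and 148 RPKM in untreated and 139, 150 and 182 RPKM in treated THS30, and at 1, 5 and 6 counts in untreated and 8, 12 and 9 counts in treated TNJ92. The groups for cadmium detoxification, sulfur metabolism, DNA repair and ribosome biogenesis held no member among their 54, 114, 82 and 185 genes. Members were only 0.592% of all genes, so groups of this size can easily hold none, and nothing is read from their absence.

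*atfA* was also the only member of the 11 genes of its own cascade, from the sensor kinases *tcsB*, *nikA* and *fphA* over the phosphorelay genes *ypdA*, *sskA* and *srrA* to the kinases *sskB*, *pbsB*, *sakA* and *mpkC*. In untreated cultures 9 of the 11, *atfA* counted, were lower in TNJ92 and none was higher, beside 29.6% of all genes lower and 32% higher. With CdCl2, 4 were lower and none was higher, beside 27.8% of all genes in each direction. Among the genes other than *atfA* the lowest level relative to THS30 was that of *tcsB*, at 17 ± 1.4 RPKM (SD, n = 3) in untreated TNJ92 against 87.8 ± 10.3 RPKM in untreated THS30, or 19.4%. With CdCl2 in TNJ92, *fphA* and *sakA* rose by edgeR, with log2 fold changes of 0.62 and 0.26.

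Members also lay side by side. In the gene order of the RefSeq annotation (assembly ASM1142v1, used only for which genes neighbour each other), 62 of the 65 members had a place, and 20 of these lay directly next to another member, in 7 pairs and 2 runs of 3. The runs of 3 were AN3512, AN10422 and AN10421, and AN3305, AN3304 and AN3303. The pairs were AN8638 with *catA*, AN9180 with AN9179, AN2923 with AN2922, AN2823 with AN2822, AN8975 with AN8974, AN0694 with AN0693, and AN0468 with AN0467. Allowing 1 gene in between added no member. For comparison, the same rule with the strains exchanged found 20 genes, of which 18 had a place and 6 lay next to another. Deposited counts of adjacent genes may share reads where transcripts overlap, and whether strand was used in counting is not stated.

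How sharply the runs ended differed. AN0694 and AN0693 stood between AN0695 and AN0692, whose strain differences in untreated cultures were 0.93 and 0.41, against -8.93 and -8.66 for the pair. AN0468 and AN0467 likewise stood between AN0469 (0.31) and AN0466 (-0.75). Around AN8638 and *catA*, by contrast, the low level reached further, with -4.13 for AN8639, -3.37 for AN8640, -4.78 for AN8641 and -3.09 for AN8636, all called with edgeR. AN8641 alone stood at 743 RPKM in untreated THS30 and at 27.4 RPKM in untreated TNJ92, and at 98.9 RPKM with CdCl2, which is above the 10% limit. Next to AN10421, AN10419 stood at 8.44 RPKM against 0.184 RPKM in untreated cultures and missed the rule only by its 4.67 RPKM in treated THS30.

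Over all members, 102 genes that were no members lay directly beside one, and 78 of them were tested. Of these, 33 were lower in TNJ92 in both conditions by edgeR, or 42.3%, beside 19.5% of all genes, and 10 were higher in both, beside 18.1% of all genes. *atfA* itself lies 13 places from AN2922 and 17 places from AN2894 in that order, and had no member directly beside it.

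**Figure D4:**
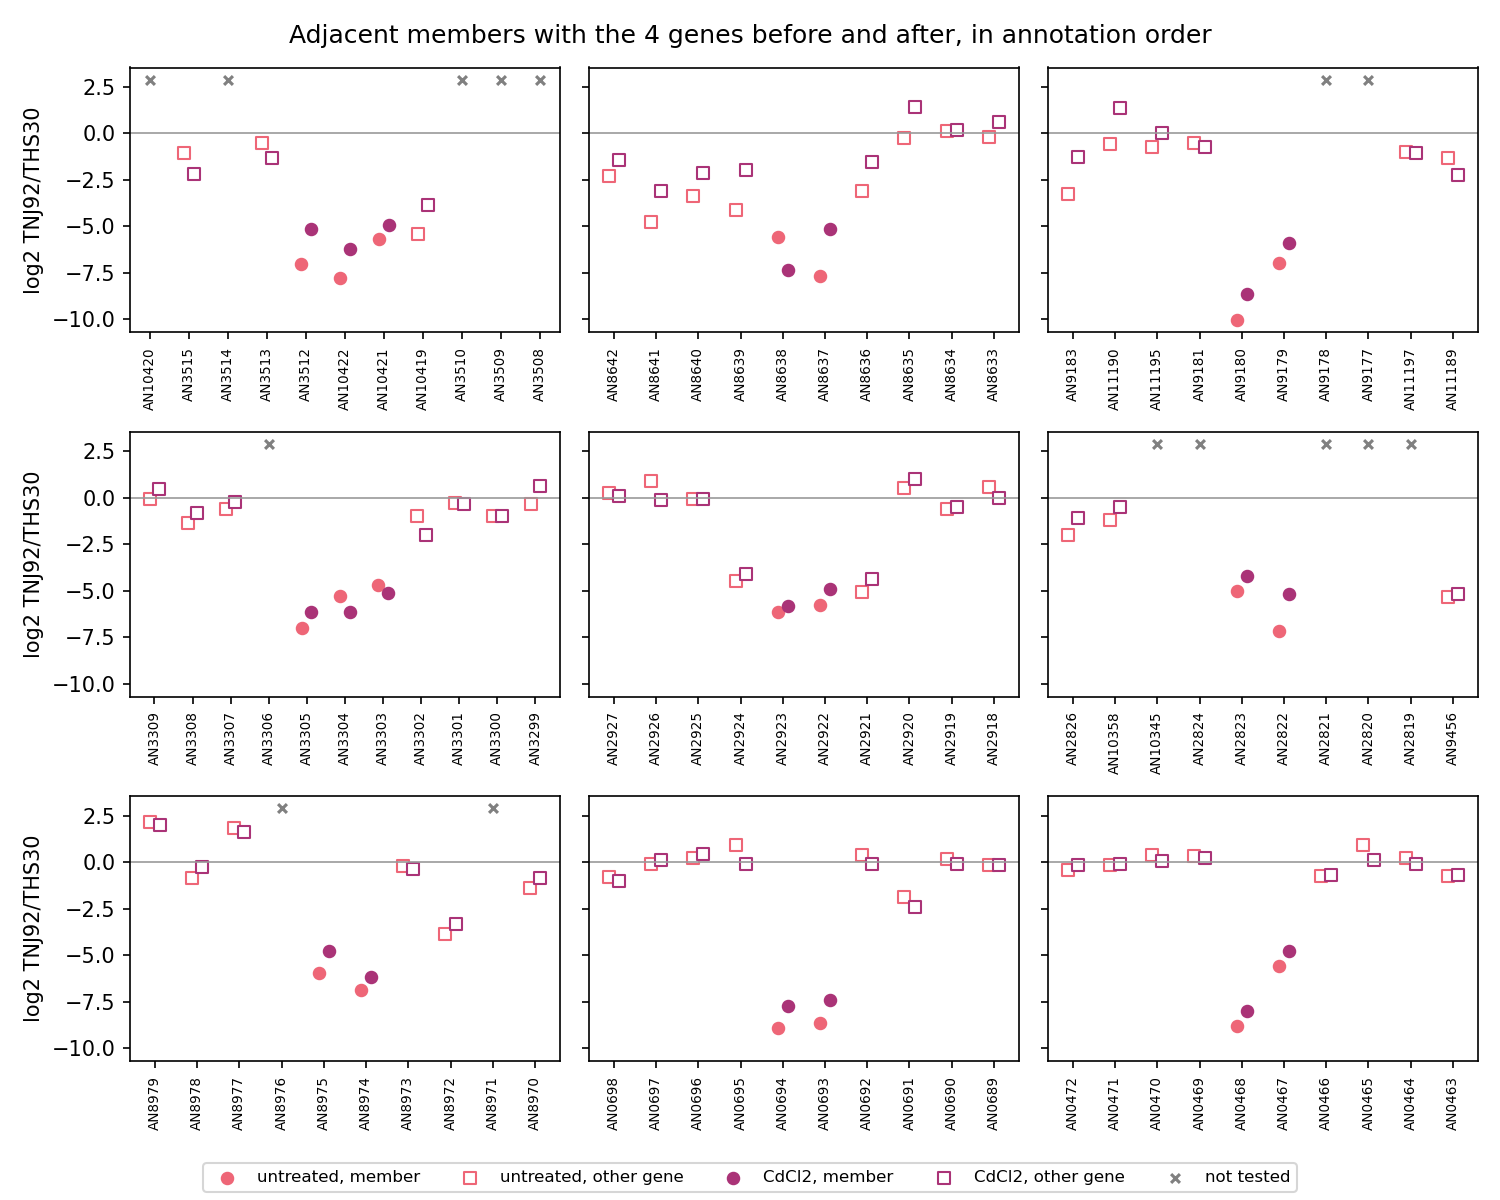
Fitted log2 TNJ92/THS30 difference of the 9 runs of adjacent members (filled circles) and of the 4 genes before and after each (open squares), by place in annotation order, for untreated and CdCl2-treated cultures; crosses at the top mark genes that were not tested. In untreated cultures the genes beside the AN0694 and AN0468 pairs lie between -0.75 and 0.93, while those beside AN8638 and *catA* lie at -4.13 and -3.09.

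In the run of AN3305, AN3304 had 9, 10 and 50 counts and AN3303 had 6, 21 and 45 counts in untreated TNJ92, where the third library, high in *rodA*, was also the highest for both. AN3305 had 4, 3 and 0 counts in the same libraries and did not share the pattern. The part of that library in these values was not tested beyond leaving it out. In functional terms assigned by the study's sources, AN2822 and AN3304 belong to lipid and fatty acid transport, and AN2823 and AN3305 to sensing of the environment.

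The members were also short. Their median transcript length was 883 bases, against 1615 bases over the genes above the level asked for in THS30, and 54 of the 65 were shorter than that median. The shortest was AN12424 with 201 bases and the longest AN3627 with 3258 bases. RPKM divides by this length, so the short members needed fewer reads to reach the level asked for, down to 14 counts in a library for AN12424.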

How the data were processed

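The deposited table gave, for 10988 genes and 12 libraries, a count, a transcript length in bases and an RPKM value. According to the study, single reads of 75 bases were aligned with HISAT2 to *A. nidulans* FGSC A4 (AspGD s10-m04-r12). No counting program is named in the sources used here. The count values were deposited by the authors as raw whole numbers. The RPKM values deposited by the authors equal count per length and column total (largest relative difference 6.44e-15) and chose the members. Groups came from the sample labels.

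Tests used the deposited counts with edgeR 4.0.16 (R 4.3.3), filterByExpr with a minimum count of 10, TMM factors and a robust quasi-likelihood fit over all 4 groups, with adjusted p under 0.05 as the threshold. Each SE was taken from the fold change and its F statistic, and can be too small where 1 group has almost no reads. The code was tested on simulated data. Alternatives were DESeq2 1.42.0, other scaling, no filter, only the groups compared, a replicate block and each library left out.

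Gene groups came from the study's supplement (membership only) and names from RefSeq (ASM1142v1, 10032 genes matched). The members, lists and rules were chosen with earlier results of these data known. Named were the 10 members most abundant in THS30, those with no TNJ92 counts, the 5 largest called rises and falls in TNJ92 with separate replicate ranges, the 3 largest interactions each way, annotated or adjacent members, the 3 genes nearest each side of the 10% limit, the 3 members highest in TNJ92 and *atfA*. Other genes were named after their values were seen.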

Additional observations from a re-analysis of the deposited data

Results flagged for a closer look

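The response to CdCl2 differed between the strains for 21 members in the positive direction, by the interaction term of the edgeR fit. These are 32.3% of the members, beside 13.2% of all genes tested. The rule bounds the THS30 response, and 13 of the 21 were called lower in THS30. A further limit is that 6 of the 21 had too few TNJ92 reads to pass the filter there, so nothing is read from the share. On the log2 scale, the interaction was 7.45 for AN5056, 3.52 for AN9285, 3.39 for AN9163, 2.54 for *catA* (AN8637), 2.51 for AN7992, 2.04 for AN0045, 2.01 for AN2822, 1.85 for AN3512, 1.70 for AN5090, 1.58 for AN3627 and 1.56 for AN10422. It was 1.41 for AN9180, 1.32 for AN3872, 1.29 for AN10678, 1.25 for AN0693, 1.11 for AN12198, 0.90 for AN2922, 0.80 for AN0468, 0.77 for AN0467 and 0.49 for AN8339, and -0.85 for AN6005. That of AN8959, 3.91, rests on an untreated group at 0 counts, so its size depends on the prior count of the fit. The values of AN8959 and *catA* rest on at most 8 counts in a TNJ92 library. Those of AN10678, AN9180, AN3512 and AN2822 also rest on few, at most 10, 11, 14 and 19 counts. Leaving out 1 library ended the call of AN8959, *catA*, AN9180, AN10678, AN2922, AN8339 and AN6005 for at least 1 choice of library. What lies behind these differences was not tested.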

How the results depend on the processing

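The rises in TNJ92 numbered 20 and kept within 1.5 times that count under every alternative, from 14 with a log2 fold change of at least 1 asked for as well to 26 with library totals. The counts of the alternatives were not set beside shares of all genes, so they describe only how far the member counts moved. The falls numbered 3, and 1 with only the TNJ92 libraries, with library totals, or with only members past the filter in the TNJ92 libraries alone (an alternative chosen after seeing the data). With only the TNJ92 libraries fitted, 33 members were not tested. With single libraries left out they ranged from 1 to 4, and the rises from 17 to 22. The positive interactions numbered 21, with 17 to 23 when a library was left out, and the negative ones 1, with 0 to 2. With a log2 fold change of at least 1 asked for beside the edgeR threshold, 17 positive and 0 negative interactions were left, since that of AN6005 is -0.85, and DESeq2 called 19 positive and 1 negative. For the interaction, all 4 groups are the groups compared. With a limit of 20% the rule found 115 members in place of 65, and with single libraries left out 64 to 72.

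Replicate numbers were shared by the labels of the groups. Same-numbered libraries deviated together weakly for replicate 1 (correlations from 0.102 to 0.267) and replicate 3 (0.104 to 0.319). Those of replicate 2 did not (-0.134 to 0.089). With the replicate number as a block, 22 members rose and 3 fell in TNJ92, and the interaction was positive for 21 and negative for 2. With single libraries left out, the interaction of *atfA*, 0.09 and not called, ranged from -0.09, without the third treated TNJ92 library, to 0.20. The search for promoter motifs was not run, since it needs sequences that were not used here. Depth limits the members near 0 counts in TNJ92.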
